A study of Mus musculus with 8 samples.

Results

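In mouse cartilage chondrocytes, 2013 regions carried a called peak, in libraries labelled H3K27me3, in cells lacking Utx, in cells lacking Ezh2 and in cells lacking Jmjd3, and none in wild-type cells. They were chosen on the peak lists themselves: each is a Utx-cKO peak that overlapped by 1 bp or more both an Ezh2-cKO peak and a Jmjd3-cKO peak, and that overlapped no wild-type peak. They made up 4.07% of the 49405 Utx-cKO peaks, out of 138214 peaks in the 4 lists together. The wild-type side of the rule rests on the absence of a called peak, which is not a measured absence of signal.

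The study immunoprecipitated H3K27me3 with a Millipore antibody (07-449) from cultured cartilage chondrocytes grown in DMEM with 10% serum, and sequenced each ChIP library beside an input library. Its question was how the mark is distributed when the enzymes that write or erase it are conditionally deleted. The groups are Wild type, Utx-cKO and Jmjd3-Cko (each with a conditional knockout of a demethylase) and Ezh2-Cko (with one of the methyltransferase), with 1 ChIP and 1 input library per genotype, 8 libraries in all. The labels used here give no Cre driver, floxed allele, age, sex or number of animals. No group has a replicate, so no difference between genotypes has a replicate check, and no test was made. The titles of the libraries carry a prefix that is the same for Utx-cKO and Jmjd3-cKO and different for wild type and for Ezh2-cKO. Between wild type and the knockouts, genotype and prefix cannot be told apart. In a bulk library, more cells with the mark and more of the mark per cell cannot be told apart either.

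H3K27me3 is a histone modification written by Polycomb repressive complex 2, whose catalytic subunit is usually Ezh2, and erased by Utx and Jmjd3. It is known for covering the CpG-rich promoters of silent developmental genes, such as transcription factors of other lineages, and for spreading over the inactive X chromosome. In growing cartilage, Ezh2 and the demethylases are known for their part in the proliferation and hypertrophy of chondrocytes.

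The ChIP libraries held between 25655346 fragments (Jmjd3-cKO) and 34786292 (Ezh2-cKO), and wild type lay inside that range with 29222251. The inputs held 16599532 fragments in wild type, the fewest, 16645811 in Jmjd3-cKO, 23983492 in Utx-cKO and 24041619 in Ezh2-cKO. Peaks numbered 49405 in Utx-cKO, 33739 in Ezh2-cKO, 28057 in wild type and 27013 in Jmjd3-cKO. Col2a1, Acan, Sox9, Comp and Matn3, defining genes of cartilage, held a peak within 2 kb of an end in each of the 4 lists, and none of them had a member there. In wild type, 29 of 30 housekeeping genes and 16 of 52 transcription factors of other lineages held a peak within 2 kb of an end. That is unlike the distribution H3K27me3 is known for, so the identity of the mark rests on the label alone and is in doubt. A peak is described here as a called region of enrichment over input, and not as a sign that a gene was silent.

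Promoters that lay under a member are shown first, because they show the kind of start site that these regions covered. Of the 2013 members, 142 overlapped the 300-base window from 250 bases before to 50 bases after an annotated start of a protein-coding gene. The 6 whose weakest peak among the 3 knockouts was strongest are printed 5′ to 3′ with every CpG in capitals. A window under a member need not lie under the peak of each knockout. At Hspb7 the Ezh2-cKO peak, at chr4:141421434-141421990, did not reach the window. At Mtarc1 the Jmjd3-cKO peak, at chr1:184810824-184811236, did not reach it either. The sequences and coordinates are those of RefSeq for GRCm38.p6.
Esr2 promoter, chr12:76177210-76177509, minus strand: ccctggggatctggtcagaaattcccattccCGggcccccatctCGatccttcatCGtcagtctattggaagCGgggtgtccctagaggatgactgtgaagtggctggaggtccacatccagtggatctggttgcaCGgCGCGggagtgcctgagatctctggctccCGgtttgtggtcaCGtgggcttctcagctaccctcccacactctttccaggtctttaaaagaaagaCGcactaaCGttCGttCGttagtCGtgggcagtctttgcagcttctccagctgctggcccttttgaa
Ooep promoter, chr9:78378539-78378838, minus strand: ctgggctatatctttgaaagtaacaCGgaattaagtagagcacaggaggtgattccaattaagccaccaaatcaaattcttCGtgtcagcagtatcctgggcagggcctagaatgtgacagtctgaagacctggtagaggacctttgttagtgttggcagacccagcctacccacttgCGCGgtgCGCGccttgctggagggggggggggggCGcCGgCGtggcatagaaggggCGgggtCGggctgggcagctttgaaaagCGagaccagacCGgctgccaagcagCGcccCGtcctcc
2410004P03Rik promoter, chr12:17011678-17011977, minus strand: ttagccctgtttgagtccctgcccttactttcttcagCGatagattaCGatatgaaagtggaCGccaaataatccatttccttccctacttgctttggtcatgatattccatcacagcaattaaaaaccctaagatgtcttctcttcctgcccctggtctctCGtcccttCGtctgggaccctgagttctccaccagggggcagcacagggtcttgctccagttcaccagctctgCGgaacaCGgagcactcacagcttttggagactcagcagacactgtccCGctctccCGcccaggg
Mtarc1 promoter, chr1:184811251-184811550, minus strand: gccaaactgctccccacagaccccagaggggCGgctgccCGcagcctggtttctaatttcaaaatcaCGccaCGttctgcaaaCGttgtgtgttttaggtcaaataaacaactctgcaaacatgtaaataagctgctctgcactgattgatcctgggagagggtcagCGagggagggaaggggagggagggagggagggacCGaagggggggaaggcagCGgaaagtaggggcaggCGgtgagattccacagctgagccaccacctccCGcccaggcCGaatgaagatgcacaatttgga
Tmem26 promoter, chr10:68723496-68723795, plus strand: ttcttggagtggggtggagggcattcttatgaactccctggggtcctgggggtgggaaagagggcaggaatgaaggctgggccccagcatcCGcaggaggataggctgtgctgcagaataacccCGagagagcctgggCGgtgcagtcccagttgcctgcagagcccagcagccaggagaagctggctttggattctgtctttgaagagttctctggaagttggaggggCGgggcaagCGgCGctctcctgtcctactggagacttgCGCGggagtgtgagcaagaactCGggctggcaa
Hspb7 promoter, chr4:141420529-141420828, plus strand: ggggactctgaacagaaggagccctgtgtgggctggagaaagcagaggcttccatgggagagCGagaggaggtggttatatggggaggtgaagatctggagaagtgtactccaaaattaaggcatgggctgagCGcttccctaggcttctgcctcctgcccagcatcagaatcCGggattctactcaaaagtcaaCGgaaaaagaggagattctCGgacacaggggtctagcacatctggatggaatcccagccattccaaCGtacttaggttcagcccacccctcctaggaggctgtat

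The Esr2 window, at the gene of estrogen receptor beta, held 14 CpG and lay inside a member of 2099 bp with a fold enrichment over input of 4.44 in Utx-cKO, 3.87 in Ezh2-cKO and 3.81 in Jmjd3-cKO. The windows of Ooep, an oocyte gene of the maternal-effect complex, and Mtarc1, a mitochondrial reductase gene, held 15 and 11 CpG. Those of 2410004P03Rik, Tmem26 and Hspb7, the last encoding a small heat shock protein of heart and muscle, held 9, 9 and 6. These counts straddle the median of 13 over all promoters. The ratio of observed to expected CpG was 0.602 at Ooep, 0.595 at Esr2 and between 0.284 and 0.468 at the others. Only Ooep thus reached the ratio of 0.6 that is asked of CpG-rich windows below. The nearest wild-type peak lay 17200 bp from the Esr2 member, 16916 bp from that of Ooep and 133313 bp from that of Tmem26, against 3139 bp for Hspb7.

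Over the 171 promoter windows under a member, from 156 genes, the median was 12 CpG (quartiles 6 and 19) and the median GC content 59.7%. Windows that were CpG-rich, with an observed to expected CpG ratio of at least 0.6 and a GC content of at least 50%, made up 33.3% of them (95% Wilson interval 26.7 to 40.7%, counting error only, here and below). The share was 45.1% over all 21263 promoters, 73.1% under Utx-cKO peaks shared by all 4 lists, 9.27% under peaks found in Utx-cKO alone and 4.07% where no list had a peak. Under Utx-cKO peaks found in wild type and Ezh2-cKO but not in Jmjd3-cKO it was 14.0% (8.68 to 21.8%). The promoters under members thus lay between those of the shared peaks and those of the peaks of Utx-cKO alone in CpG content, and the interval did not overlap that of either. The groups were not matched for peak strength. A fold enrichment of 4 or more in Utx-cKO was reached by 73.6% of the shared peaks, 5.46% of the members and 0.214% of the peaks of Utx-cKO alone. The lists a peak belongs to were used by the rule, but the sequence was not.

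Members also covered 8 of 1005 annotated miRNA hairpins, in 7 members, out of 232 hairpins under any Utx-cKO peak, a share near that of the members among Utx-cKO peaks. The mature sequences of 4 are printed with the seed, bases 2 to 8, in capitals, because they identify the small RNAs whose precursors lay in these regions. No seed was shared among them.
mmu-miR-338-3p: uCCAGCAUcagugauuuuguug
mmu-miR-3065-5p: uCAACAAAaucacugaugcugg
mmu-miR-128-3p: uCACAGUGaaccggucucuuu
mmu-miR-34a-5p: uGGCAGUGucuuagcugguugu

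Mir338 and Mir3065 overlap on opposite strands and shared the member of 2219 bp inside Aatk, a kinase gene expressed in the nervous system, at chr11:120012694-120014912, with a fold enrichment of 4.26 in Utx-cKO, 3.29 in Ezh2-cKO and 3.52 in Jmjd3-cKO. Mir128-2 lay in a member of 493 bp inside Arpp21, with 3.53, 3.29 and 4.05 in the same order and the nearest wild-type peak 116029 bp away. Mir34a, a target of p53, lay outside protein-coding genes in a member of 3598 bp with lower values of 3.13, 2.45 and 2.35. The other 4 hairpins were Mir12181, Mir5616, Mir1941 and Mir1936.

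The members were weak to moderate peaks. Fold enrichment, which is the authors' value of each peak over its own input and ranks peaks within a list, ran from 2.35 to 6.99 in Utx-cKO with a median of 3.05 and quartiles of 2.81 and 3.39. The overlapping Ezh2-cKO peaks had a median of 2.68 (quartiles 2.50 and 2.94) and the overlapping Jmjd3-cKO peaks a median of 2.78 (2.56 and 3.07). Within their own lists the members lay at a median percentile of 51.6 in Utx-cKO, 32.0 in Ezh2-cKO and 20.5 in Jmjd3-cKO. In Jmjd3-cKO, 81 members (4.02%) lay above the median of the list, and in Ezh2-cKO 345 (17.1%). These values chose the members in part, since weak peaks are the ones most easily missing from a list, and they are given as a description.

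**Figure D1:**
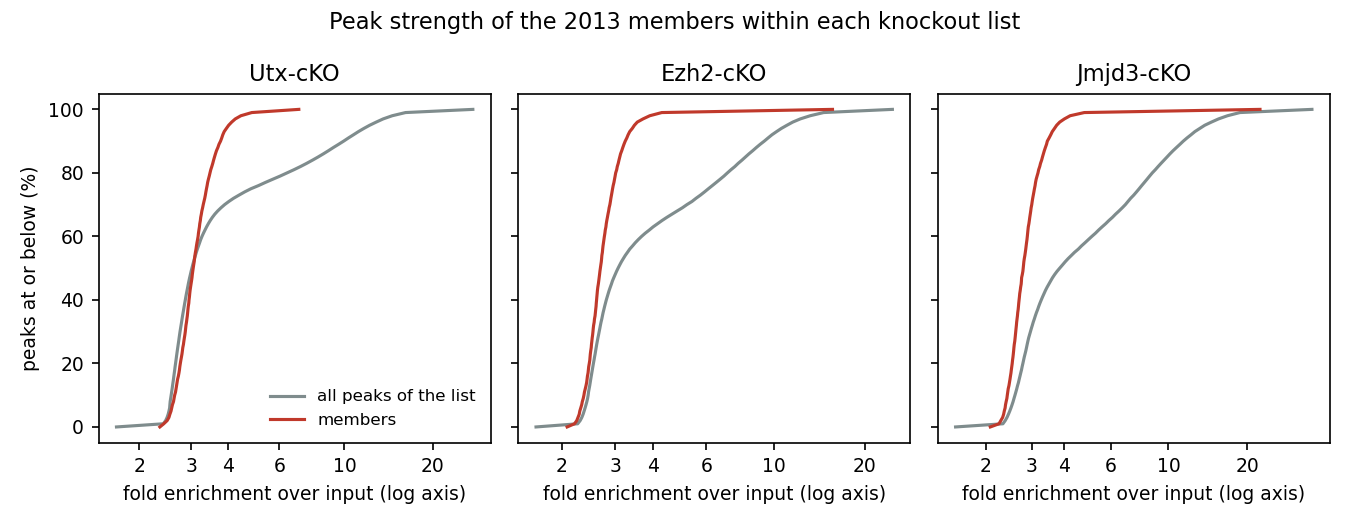
Cumulative share of peaks (vertical axis, %) at or below each fold enrichment over input (horizontal log axis) in Utx-cKO, Ezh2-cKO and Jmjd3-cKO, for all peaks of the list (grey) and for the 2013 members or the peaks overlapping them (red). The red curves rise steeply near medians of 3.05, 2.68 and 2.78 and lack the long upper tail of the lists.

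Of the members, 110 (5.46%) had a fold enrichment of 4 or more in Utx-cKO, against 29.3% of all Utx-cKO peaks. A −log10 q of 3 or more was reached in Utx-cKO by 1155 (57.4%), near the 51.9% of all Utx-cKO peaks. In all 3 knockouts at once that level was reached by 308 members (15.3%), and a fold enrichment of 4 or more by 5 (0.248%). In 59 members (2.93%) the Ezh2-cKO or Jmjd3-cKO peak was long enough to reach a wild-type peak outside the member, and the highest partner values, 15.6 in Ezh2-cKO and 22.4 in Jmjd3-cKO, need not describe the member itself.

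The 3 knockout peaks overlapped one another in part. In 1926 members (95.7%) they had bases in common, with a median stretch of 307 bp over all members, and in 87 members the Ezh2-cKO and Jmjd3-cKO peaks touched different stretches of the Utx-cKO peak. Member length ran from 224 to 10409 bp with a median of 905 bp and quartiles of 559 and 1537 bp, and the members covered 2.48 Mb together. Ezh2-cKO peaks covered a median of 58.7% of a member and Jmjd3-cKO peaks 53.8%.

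The strongest member in Utx-cKO lay outside protein-coding genes, with Gng4, a G protein gamma subunit gene, as the nearest gene 61.2 kb away. It spanned chr13:13889142-13890096 and had a fold enrichment of 6.99 in Utx-cKO, 5.05 in Ezh2-cKO and 4.05 in Jmjd3-cKO, and the nearest wild-type peak lay 63468 bp away. The next lay over the noncoding gene Gm29677 and 44.9 kb from the nearest protein-coding gene, Mc2r, the receptor of adrenocorticotropic hormone, with 5.57, 3.84 and 4.60 in that order. Both were also among the 10 members with the highest value in the weakest of the 3 knockouts.

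At gene ends, the strongest member of 528 bp lay where Kctd13, Asphd1 and Sez6l2 come close together on chromosome 7, with 5.50 in Utx-cKO, 3.36 in Ezh2-cKO and 4.65 in Jmjd3-cKO. Ticam1, the adaptor of Toll-like receptor 3 signalling, had 5.37, 4.06 and 2.87. Other members of this rank lay at 2410004P03Rik (5.28, 4.73 and 3.47), at Dnah7c, an axonemal dynein gene (5.21, 3.19 and 4.38), and inside Ttc41 (5.15, 3.32 and 3.84). Hapln4, a link protein that joins hyaluronan to proteoglycans of the brain matrix, held a member in its body with 5.29, 3.42 and 3.69. The 2 remaining members among the 10 strongest lay in the noncoding RNA gene Firre and are described with it.

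Ranked by the weakest of the 3 knockouts, the member inside Ppp1r13l, the gene of a p53 inhibitor, came highest with 4.70 in Utx-cKO, 4.28 in Ezh2-cKO and 4.89 in Jmjd3-cKO. Notch3, a receptor of the Notch pathway, held a member of 524 bp in its body at chr17:32162216-32162739 with 4.32, 4.07 and 4.32. The others of this rank beside those already given lay within 2 kb of Spag11a and Defb14, which are epididymal and defensin genes (lowest value 4.06), in Lpo, the gene of lactoperoxidase (4.02), in Pld5 (3.83), 16.7 kb from Nfasc (3.83), at Akain1 (3.82) and at Esr2 (3.81). In Ppp1r13l and Notch3 the 3 knockouts had nearly the same value.

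Of the 5 longest members, 3 lay in gene bodies. Col27a1, a fibrillar collagen of cartilage, held one of 10409 bp at chr4:63228023-63238431, which overlapped 3 Ezh2-cKO peaks and 1 Jmjd3-cKO peak, with 2.95 in Utx-cKO, 2.66 in Ezh2-cKO and 2.46 in Jmjd3-cKO. Notch1 held one of 8957 bp with 2.80, 2.41 and 2.60, and Septin9, a cytoskeletal GTPase gene, one of 8120 bp with 3.17, 2.51 and 2.48. A member of 7504 bp lay 7.13 kb from Trmt61a over the noncoding gene Gm51961, and one of 7136 bp covered the ends of Fxr2, Sox15 and Mpdu1. Fold enrichment in Utx-cKO was at most 3.22 at these 5 regions, so the longest members were not the strongest.

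At the edge of the rule, the members closest to a wild-type peak lay 10 bp from it in R3hcc1l (fold enrichment 2.76 in Utx-cKO, 2.68 in Ezh2-cKO and 3.24 in Jmjd3-cKO), 15 bp in Eps8 (3.46, 2.71 and 2.85) and 17 bp near Pirt (3.48, 2.48 and 2.55). Just outside it, Utx-cKO peaks found in the other knockouts overlapped a wild-type peak by 10 bp in Tox, with 3.003 in Utx-cKO and 2.85 in wild type, by 12 bp in Bach2 (3.03 and 2.70) and by 20 bp in Ptprd (2.83 and 3.64). The values on either side of the edge are alike, and few members were that close. The median distance from a member to the nearest wild-type peak was 11211 bp, 59 members (2.93%) lay within 1 kb and 577 (28.7%) within 5 kb. For Utx-cKO peaks found in Utx-cKO alone the median distance was 11564 bp.

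The members lay away from promoters more often than Utx-cKO peaks as a whole. Of the 2013, 386 lay within 2 kb of either end of a protein-coding gene (19.2%, 17.5 to 21.0%), against 32.7% of all Utx-cKO peaks and 63.0% (62.3 to 63.7%) of those shared by all 4 lists. Within 2 kb of an annotated start site the count was 212 (10.5%, 9.26 to 11.9%), against 23.4% of all Utx-cKO peaks. Gene bodies away from the ends held 1007 (50.02%, 47.8 to 52.2%), against 42.8%, and 620 lay outside protein-coding genes (30.8%, 28.8 to 32.9%), against 24.5%. These 2 excesses were not particular to the members. Each other class missing from 1 list or more had 53.1% to 58.2% in gene bodies and 30.2% to 35.6% outside genes. Position was not used by the rule, but the lists compared here share the Utx-cKO library.

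**Figure D2:**
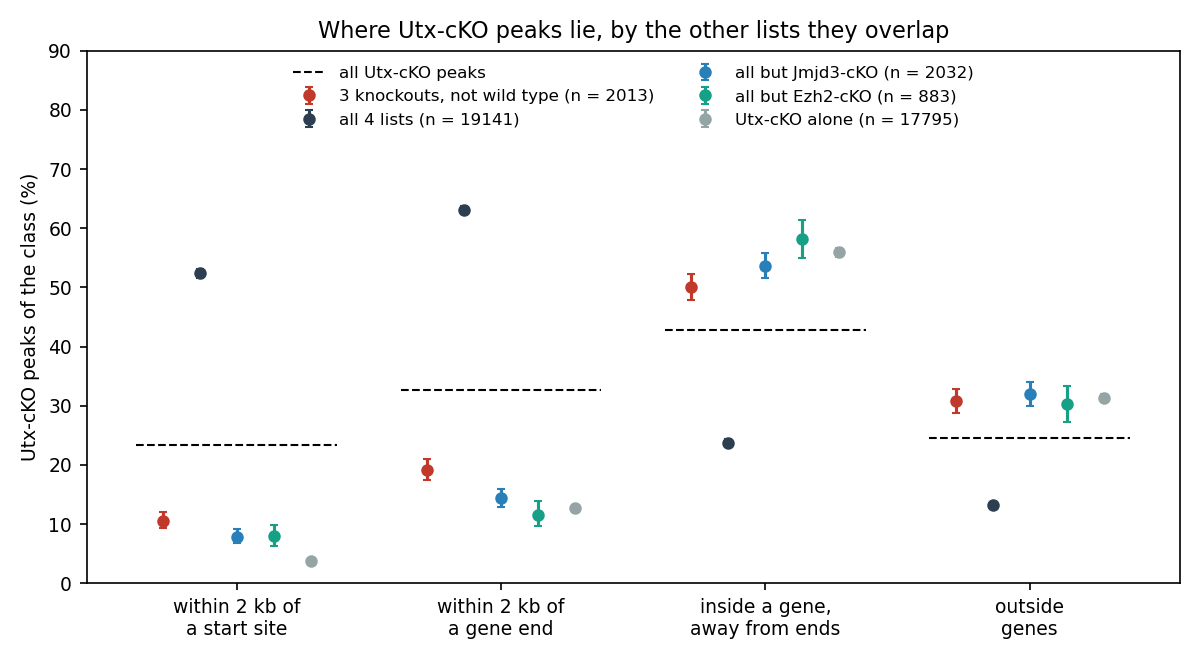
Share of Utx-cKO peaks (vertical axis, %) in each position (horizontal axis), for peaks grouped by the other lists they overlap. Points are shares, bars are 95% Wilson intervals, and dashed lines give all Utx-cKO peaks. The members (red) lie at 10.5% at start sites and 19.2% at gene ends, between the peaks of all 4 lists and the peaks of Utx-cKO alone.

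Compared with other Utx-cKO peaks that were missing from exactly 1 list, the members were, over all strengths, more often at gene ends and at start sites. The start-site share was 7.82% (6.74 to 9.07%) for the 2032 peaks missing from Jmjd3-cKO alone and 7.93% (6.32 to 9.90%) for the 883 missing from Ezh2-cKO alone, and the latter interval overlaps that of the members. Between a fold enrichment of 3 and 3.5 the peaks missing from Ezh2-cKO had 12.5% (9.03 to 17.2%) at start sites, against 11.4% of the members. At either gene end the members had 19.2%, against 14.3% (12.9 to 15.9%) and 11.6% (9.61 to 13.8%), with intervals that do not overlap. Within each band of strength the members' interval did overlap that of peaks missing from Jmjd3-cKO. Below a fold enrichment of 3 the members had 14.2% (12.1 to 16.6%), against 10.9% (9.11 to 12.9%). Peaks missing from Ezh2-cKO had 6.96% (5.07 to 9.49%) there. At 4 or more the members had 30.9%, against 29.8% of peaks missing from Jmjd3-cKO. So peaks missing from wild type alone were about as many as peaks missing from Jmjd3-cKO alone, and over all strengths lay at gene ends somewhat more often. In the same terms, 330 of 28057 wild-type peaks were found in Ezh2-cKO and Jmjd3-cKO and not in Utx-cKO, the longest list.

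Below a fold enrichment of 4, much of the distance from the shared peaks at start sites disappeared among peaks of like strength. Below a fold enrichment of 3 in Utx-cKO, 6.27% (4.87 to 8.04%) of the members and 4.76% (3.78 to 5.98%) of the peaks in all 4 lists lay at a start site, and between 3 and 3.5 the shares were both 11.4%. Between 3.5 and 4 they were 17.5% (13.5 to 22.5%) and 19.97% (18.1 to 22.0%). At 4 or more they parted, with 22.7% (15.9 to 31.4%) of 110 members and 48.7% (47.3 to 50.03%) of the shared peaks that were no stronger than the strongest member. In that band the shared peaks were still stronger, with a median of 5.25 against 4.29. At gene ends and outside genes the members exceeded the shared peaks below a fold enrichment of 3, with 14.2% (12.1 to 16.6%) against 9.72% (8.30 to 11.4%) at ends and 30.1% (27.2 to 33.2%) against 24% (21.9 to 26.3%) outside. Neither excess was particular to the members. At ends, peaks of Utx-cKO and Ezh2-cKO only had 15.3% in that band and peaks of Utx-cKO alone 12.6%, with the remaining classes between 6.96% and 10.9%. Outside genes, each other class missing from 1 list or more had 25.9% to 33.8%. Peaks of Utx-cKO alone had lower shares at start sites than the members, at 3.33%, 5.47%, 6.67% and 10.5% over the 4 bands. The last is 4 of 38 peaks (4.17 to 24.1%), an interval that overlaps that of the members. Peaks of Utx-cKO and Jmjd3-cKO only had 5.52%, 7.52%, 16.2% and 25%, with an interval that overlaps that of the members in each band.

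**Figure D3:**
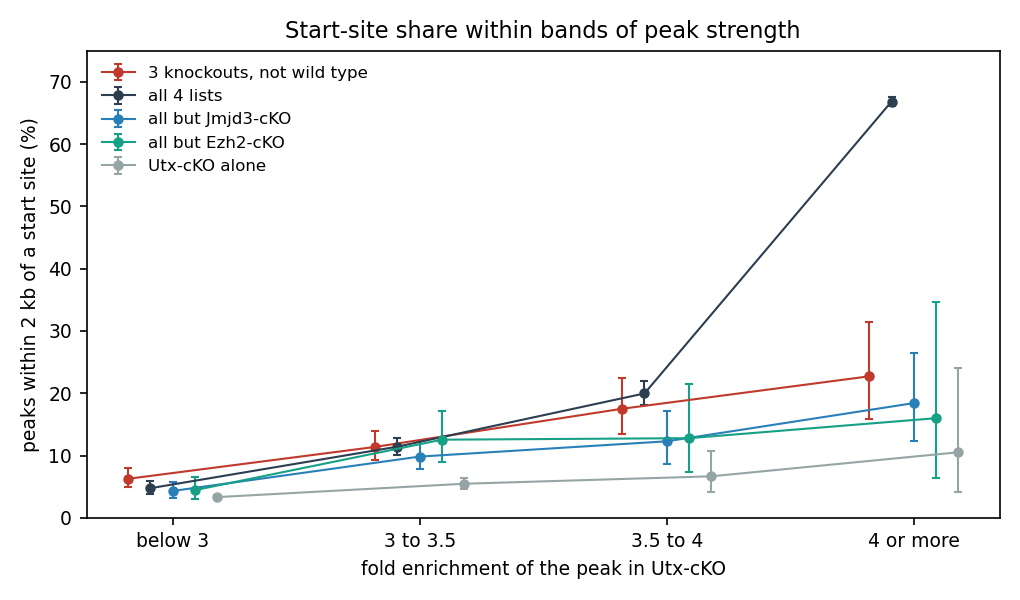
Share of Utx-cKO peaks within 2 kb of a start site (vertical axis, %) in 4 bands of fold enrichment in Utx-cKO (horizontal axis), for members and for 4 other groups of Utx-cKO peaks. Bars are 95% Wilson intervals. The band of 4 or more has no upper limit here, and the shared peaks in it, at 66.8%, include many that are stronger than any member.

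Among members that touched exactly 1 kind of gene end, the 5′ and the 3′ end were about equally frequent. The 5′ end alone was within 2 kb of 152 members (7.55%, 6.48 to 8.79%) and the 3′ end alone of 127 (6.31%, 5.33 to 7.46%). Peaks of all 4 lists were mostly at 5′ ends, with 40.03% against 3.20%, and peaks of Utx-cKO alone mostly at 3′ ends, with 2.41% (2.19 to 2.64%) against 7.13% (6.76 to 7.52%). The balance was not particular to the members. Peaks missing from Jmjd3-cKO alone had 5.17% at 5′ and 4.97% at 3′ ends, and those missing from Ezh2-cKO alone 5.32% and 2.60%. Inside a single host gene of known strand, 814 members lay at a median of 0.451 of the way from start to end, with 151 of them beyond 75% of the way.

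The genes that hosted members in their bodies were long genes. The 1007 intragenic members lay in 874 host genes with a median length of 91.3 kb, against 17.2 kb for all 21887 protein-coding genes, 70.7 kb for hosts of peaks in all 4 lists and 49.0 kb for hosts of peaks in Utx-cKO alone. A wild-type peak stood at an end of 717 of these host genes (82.0%, 79.4 to 84.4%), against 62.3% of all genes and 84.7% of the hosts of peaks in Utx-cKO alone. Most host genes therefore already held a wild-type peak at an end, and the member was a further peak within the gene.

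There were 39 genes with 3 or more members over the gene or within 2 kb, of varied function, and those named here were chosen after their values were seen. Zfp423, a zinc finger factor of adipocyte and neural precursors, held 6 members over 300.2 kb, in a gene with 34 Utx-cKO, 15 Ezh2-cKO, 12 Jmjd3-cKO and 6 wild-type peaks. Zbtb16, a zinc finger repressor with a part in limb patterning, held 4, as did Tns1, Macrod1, Rgs3 and Slc39a11. Gli2, a transcription factor of hedgehog signalling, and Igf1r, the receptor of insulin-like growth factor, held 3 each. So did Smad6, an inhibitor of BMP signalling, Chst11, a sulfotransferase of chondroitin, Lrp1, Prdm16, Nfatc1 and Ppard. Long genes offer more room for a peak, and the length of a gene was not adjusted for.

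Near one another the members were sparse. Of the 2013, 159 (7.90%) lay within 10 kb of another member, and at that distance there was 1 cluster of 3 or more. It held 5 members over 17.98 kb in Firre, a long noncoding RNA gene on the X chromosome that is known for tandem repeats and for contacts of the inactive X with the nucleolus. With a further member outside the cluster, Firre held 6 of the 16 members on the X chromosome.

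The Firre members had fold enrichments between 3.75 and 5.53 in Utx-cKO, 3.20 and 6.003 in Ezh2-cKO and 2.68 and 3.86 in Jmjd3-cKO. The strongest in Utx-cKO, at chrX:50571126-50572835, had 5.53, 4.55 and 3.64, and the one outside the cluster, at chrX:50602616-50603034, had 5.28, 6.003 and 3.21. Over the 72.2 kb gene and 5 kb on either side there were 20 Utx-cKO peaks covering 15.5 kb, 20 Ezh2-cKO peaks covering 11.1 kb, 10 Jmjd3-cKO peaks covering 4.97 kb and 6 wild-type peaks covering 3.01 kb. Firre was thus not without peaks in wild type, and 6 of its Utx-cKO peaks overlapped a wild-type peak.

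The libraries also differed at genes of the Y chromosome. Kdm5d, Eif2s3y, Uty and Ddx3y, all Y-linked, held a peak in 4 of 4 cases in wild type and in 0 of 4 in each of the 3 knockout lists. Over the whole Y chromosome there were 6 peaks in wild type, 4 in Utx-cKO, 2 in Jmjd3-cKO and 0 in Ezh2-cKO. The part of this difference in the Firre members was not tested, and sex is not given in the labels used here. The X chromosome as a whole held few members, with 16 of its 664 Utx-cKO peaks (2.41%, 1.49 to 3.88%). The autosomes had 3.05% (chromosome 16, 2.31 to 4.02%) to 4.64% (chromosome 17), and the X interval overlaps that of chromosome 16. Of the 664 peaks on the X, 483 were in all 4 lists and could not be members, against 19141 of all 49405 Utx-cKO peaks.

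**Figure D4:**
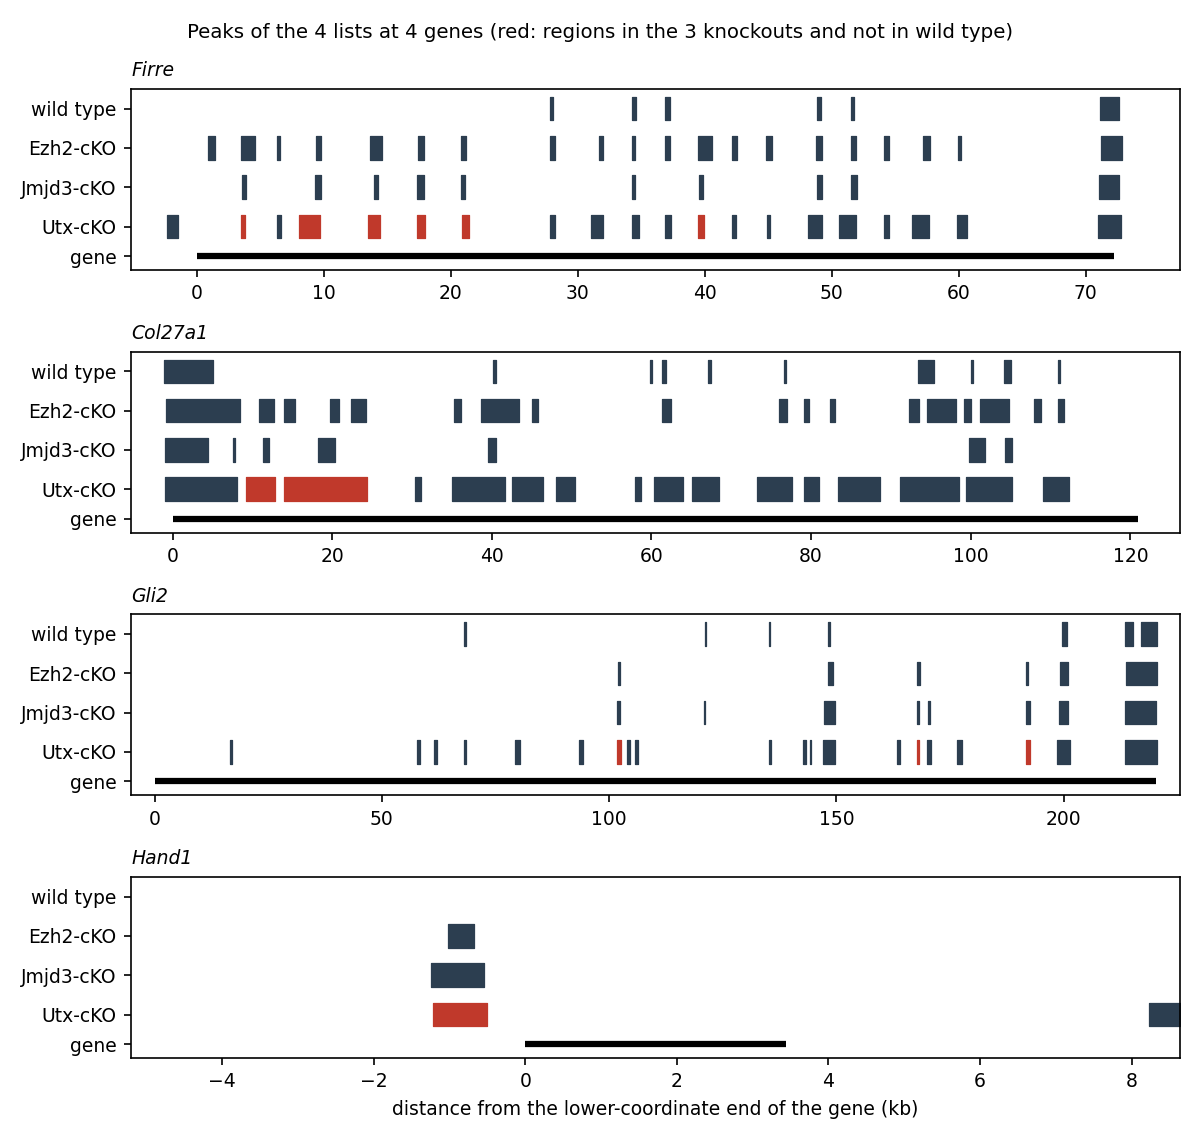
Peaks of the 4 lists over Firre, Col27a1, Gli2 and Hand1 and 5 kb on either side, drawn to scale by distance from the end of the gene with the lower coordinate (horizontal axis, kb). Red bars are members and dark bars other peaks. Col27a1 shows 2 long members beside a peak of all 4 lists, Gli2 shows 3 short members among many peaks, and Hand1 shows no wild-type peak.

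At Col27a1, 2 neighbouring members filled the interval after the peak at the start of the gene that all 4 lists share. The smaller one, of 3684 bp, had a fold enrichment of 3.26 in Utx-cKO, 2.73 in Ezh2-cKO and 2.56 in Jmjd3-cKO. Peaks covered 72.7 kb of the gene and its flanks in Utx-cKO, 36.1 kb in Ezh2-cKO, 12.3 kb in Jmjd3-cKO and 11.5 kb in wild type. The Jmjd3-cKO coverage was therefore near that of wild type over the locus as a whole, but parts of its peaks lay where wild type had none. Col5a1, another fibrillar collagen, held a member of 6730 bp in its body with 3.44, 2.60 and 2.37, in which the Ezh2-cKO and Jmjd3-cKO peaks shared no base. Altogether 7 of 50 collagen genes (14%, 6.95 to 26.2%) held a member at an end or in the body, against 5.99% of all protein-coding genes. At an end it was 1 of 50, against 2.09% of all protein-coding genes. Gene length was not adjusted for, and Col27a1 (121 kb) and Col5a1 (153 kb) are long against the median of 17.2 kb. This family was looked at after its values were seen. Col16a1 held it at an end, and Col5a1, Col11a1, Col15a1, Col18a1, Col26a1 and Col27a1 in the body.

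Over the whole annotation, 457 of 21887 protein-coding genes (2.09%) had a member within 2 kb of an end, and 1310 (5.99%) at an end or in the body. Of the 457, 212 also held a wild-type peak at an end, 245 did not, and 196 had no wild-type peak anywhere over the gene or within 2 kb of it. Over all protein-coding genes 62.3% held a wild-type peak at an end. The rule bars a member from overlapping a wild-type peak, so these counts are a description and not a result about the genes. The 19 lists of genes described next hold 488 entries, and are small, so that their intervals are wide.

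Transcription factors of other lineages, typical silent genes in a chondrocyte, had members at an end of 5 of 52 genes (9.62%, 4.18 to 20.6%). Of the 52, 16 held a wild-type peak at an end, against 62.3% of all protein-coding genes. The rule itself thus left more room for a member in this list. Hand1, a factor of heart and trophoblast, had the strongest, 720 bp long at chr11:57827495-57828214, with 4.97 in Utx-cKO, 3.36 in Ezh2-cKO and 3.17 in Jmjd3-cKO, and the wild-type list held no peak over the gene or within 5 kb. Sox10, of the neural crest, had 3.07, 3.08 and 3.60, and Ptf1a, of the pancreas, 3.17, 3.07 and 2.69. Nkx2-1, of thyroid and lung, had 2.87, 2.72 and 3.21 with the nearest wild-type peak 100848 bp away, and Sox3, an X-linked neural gene, had 2.86, 2.67 and 3.15. None of the 5 genes held a wild-type peak at an end. Pax5, Pax7 and Six3 held one in the body, and that of Pax5, a B-cell factor, reached 5.09, 4.07 and 3.40.

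Retinoic acid genes had members at an end of 4 of 19 genes (21.1%, 8.51 to 43.3%), the highest share of the 19 lists. Aldh1a2, which makes retinoic acid, had a member of 702 bp across an end of the gene at chr9:71215360-71216061 with 3.88 in Utx-cKO, 2.66 in Ezh2-cKO and 4.08 in Jmjd3-cKO, and the nearest wild-type peak was 268205 bp away. The receptor genes Rxra (4.09, 2.98 and 3.21), Rarg (3.03, 2.63 and 2.84) and Rara (3.40, 2.20 and 2.62) differed from it in holding a wild-type peak at an end as well. The nearest wild-type peak at any position, not always the one at the end, lay between 1179 and 4904 bp from these members. At the Rara end the Ezh2-cKO and Jmjd3-cKO peaks had no base in common.

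Among signalling genes, 3 of 22 FGF ligands and receptors (13.6%, 4.75 to 33.3%) had a member at an end. Fgf8, a ligand of limb and brain patterning, had 4.20 in Utx-cKO, 2.94 in Ezh2-cKO and 2.97 in Jmjd3-cKO, Fgf3 had 2.95, 2.46 and 2.63, and the receptor gene Fgfr1 had 2.82, 2.43 and 2.42. Of TGF-beta and BMP ligands and antagonists, 3 of 36 had one: Gdf2, a ligand acting on vessels, with 3.39, 3.45 and 3.56, Gdf1, a ligand of left-right patterning, with 3.14, 2.55 and 2.41, and Mstn, which limits muscle growth, with 2.72, 2.55 and 2.99. Gdf2 lay above the third quartile of the members in each of the 3 knockouts and Fgf8 above it in Utx-cKO. Gdf1, Fgf8 and Fgfr1 held a wild-type peak at an end too.

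Hedgehog genes had a member at an end of 1 of 16 genes, Dhh, the ligand of testis and nerve sheath (3.02, 3.06 and 2.43). Others lay in the bodies of Gli2 and Sufu, an activator and an inhibitor of the pathway. The 3 members in Gli2 had 3.24, 3.75 and 4.49 in Utx-cKO, with between 2.36 and 2.56 in Ezh2-cKO and between 2.45 and 3.003 in Jmjd3-cKO. Wnt ligands and antagonists had 1 of 34, Sfrp5, a secreted Wnt antagonist (2.93, 2.51 and 3.13), with Wnt5b and Rspo2 in the body. Of 39 Hox genes, Hoxb7 and Hoxb8 shared a member of 1384 bp that lay over Hoxb8 and within 2 kb of Hoxb7, with 3.63 in Utx-cKO, 3.72 in Ezh2-cKO and 3.54 in Jmjd3-cKO, and Hoxa3 held one in its body.

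Cartilage and bone genes had members in their bodies more than at their ends, as did protein-coding genes as a whole. Of the 1310 genes with a member at an end or in the body, 457 had one at an end. Of 28 genes of chondrocyte matrix and regulation, Chad, the gene of chondroadherin, had one at an end (2.85 in Utx-cKO, 2.75 in Ezh2-cKO and 2.70 in Jmjd3-cKO), and Col11a1, Sox6 and Epyc held one in the body. The Sox6 member lay 79 bp from a wild-type peak. Of 28 genes of hypertrophy and osteogenesis, Mef2d had one at an end (2.76, 2.78 and 2.53), and Runx2 (2.96, 2.17 and 2.37), Mef2c and Alpl held one in the body. The shares at an end were 3.57% (0.633 to 17.7%) in both lists, and at an end or in the body 14.3% (5.70 to 31.5%) in both, with intervals that include the 2.09% and 5.99% over all genes. Timp2 and Timp3, inhibitors of matrix metalloproteinases, held a member in the body, and no gene of the 30 for matrix degradation and inflammation had one at an end.

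Among the 14 genes that encode PRC2 subunits or H3K27 demethylases, Aebp2, an accessory subunit, had members at its start and in its body. The one at the start had 3.70 in Utx-cKO, 3.12 in Ezh2-cKO and 17.3 in Jmjd3-cKO, but the Jmjd3-cKO peak ran on over the start of the gene, where a wild-type peak lay 1393 bp from the member. The one in the body had 3.04, 2.86 and 3.14. Elf3, an epithelial factor (3.18, 2.67 and 2.30), and Tal1, a blood cell factor (3.64, 2.65 and 3.20), were the genes with a member in the keratin and junction list and in the haematopoietic list, and neither gene held a wild-type peak at an end.

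At an end or in the body, 0 of 30 housekeeping genes had a member, with an upper bound of 11.4%, and neither did any of 16 endothelial (up to 19.4%) or 15 myogenic genes (up to 20.4%). These bounds lie above the 5.99% over all genes. With a wild-type peak at an end of 29 of the 30 housekeeping genes, the rule itself left little room for a member there. Of neuronal channel and receptor genes 0 of 36 had one at an end, and Scn8a, Kcnn4 and Cacna1a were among those with one in the body. Prdm16 was the gene among 14 adipogenic genes with members, and Rb1 among 9 cell cycle inhibitors, both in the body.

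**Figure D5:**
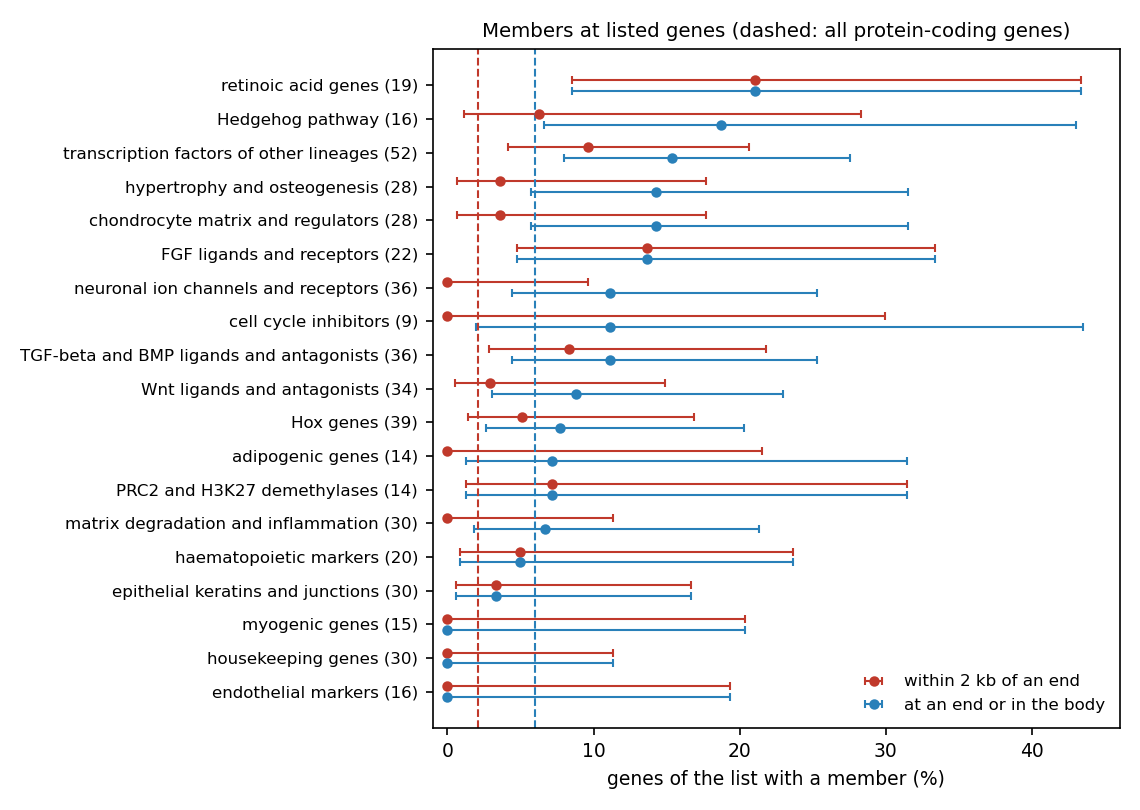
Share of the genes of each list (horizontal axis, %) with a member within 2 kb of an end (red) or at an end or in the body (blue), with the number of genes in brackets and 95% Wilson intervals. Dashed lines mark 2.09% and 5.99%, the shares over all protein-coding genes, and the intervals of most lists include them.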

How the data were processed

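H3K27me3 ChIP libraries of cultured mouse chondrocytes of 4 genotypes were analysed from their 4 peak lists. The tools named in the submitters' processing notes are Bowtie2, ChIPseeker, MACS2, deepTools 2.4.1, FastQC 0.11.5 and HOMER 4.10. No source used here names the genome build. Broad peaks were called by the authors with MACS 2.1.2, per the file headers, from paired-end reads, each ChIP against its own input and without pooling, at a q-value threshold of 0.05. Each deposited peak has its length in bp, the coverage signal (pileup), −log10 of its p-value and of its q-value, and a fold enrichment, the ratio over input. Each list was scaled within its own library pair, so fold enrichment ranks peaks within a list, and whether a weak peak is called depends on depth.

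Members and the other classes of Utx-cKO peaks were found by overlap of 1 bp. Where several partner peaks overlapped a member, the highest fold enrichment is given. Gene positions, promoters and miRNAs are those of RefSeq for GRCm38.p6, which the chromosome names of the files fit; exons and introns were not told apart. Of 21887 protein-coding genes, 17492 had a start site in the promoter table. The named members are the 10 highest in Utx-cKO, the 10 with the highest weakest value, the 5 longest, the 3 closest to wild type and the 3 just outside the rule, and per list up to 4 genes with a member at an end; promoters on chromosome 18 are not printed. Genes named for a member in the body, for several members, by family or for a miRNA were chosen after their values were seen, and some such genes are not reported here. The members and the 19 gene lists were chosen with earlier results of these data known. Intervals are 95% Wilson intervals. The overlap rule was tested on simulated data. Alternatives changed peak thresholds, list length, merging, overlap, the anchoring list, chromosomes and the gene-end window. The software was Python 3.11.15 with matplotlib 3.10.9, scipy 1.17.1, pandas 2.3.3 and numpy 2.4.6.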

Additional observations from a re-analysis of the deposited data

How the results depend on the processing

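The number of members depended on peak strength and little on how overlap was defined. It fell from 2013 to 996 with a −log10 q of 3 or more asked of all 4 lists, to 308 with that asked of the knockouts, to 5 with a fold enrichment of 4 or more in the knockouts, to 174 with 3 or more (this last chosen after seeing the data), and to 1185 with equally long lists of the 27013 strongest peaks. It stayed between 1437 and 2190 under the other alternatives, including 1437 with no wild-type peak within 5 kb and 1954 where no knockout peak reached a wild-type peak, also chosen after seeing the data. The 996 include regions that overlapped a weaker wild-type peak, which that setting dropped, so they are not a stricter subset of the members. Under most thresholds on peak strength the share at gene ends, 19.2%, was higher. It was 29.82% with the q threshold in all 4 lists, 28.9% with it in the knockouts and 24.64% with equally long lists. With fold enrichments from 3 up it was 31.61%, but 20% (1 of 5) at 4 or more. It was 15.8% with a window of 1 kb and 30.7% with one of 5 kb. The share outside genes, 30.8%, became 37.01% with the q threshold in the knockouts, 20% for the 5 members at a fold enrichment of 4, 33.31% with peaks merged within 3 kb, 34.17% with no wild-type peak within 5 kb and 26.23% with the 5 kb window. Genes with a member at an end, 457, became 103 with the q threshold in the knockouts, 2 and 63 at fold enrichments of 4 and 3, and 772 with the 5 kb window. No paired analysis was possible because there is 1 library of each kind per genotype and no test was made.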

Other observations

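Olfactory receptor genes, silent outside the nose, held no member, 0 of 1110 at an end or in the body (95% Wilson upper bound 0.345%). Whether these genes held other peaks is not reported here, so the absence cannot be read as particular to the members. Of 400 zinc finger genes with a Zfp symbol, 14 held one (3.5%, 2.096 to 5.79%), 4 of them at an end. Solute carrier genes held one in 33 of 389 cases (8.48%, 6.10 to 11.7%), and potassium channel genes with a Kcn symbol in 8 of 93 (8.60%, 4.42 to 16.1%), 6 of them at an end: Kcnt1, Kcna4, Kcnmb2, Kcnn3, Kcnh2 and Kcnj12. The share over all protein-coding genes was 5.99%. Long noncoding RNA genes overlapped 280 members (13.9%, 12.5 to 15.5%), against 13.5% of all Utx-cKO peaks. These families were looked at after the data were seen.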
